A study of Homo sapiens with 4 samples.

Results

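The 10 genes described here are surface markers and transcription factors by which stem-like tumour cells are commonly recognised: CD44, PROM1, CD24, EPCAM, SOX2, SOX9, KLF4, MYC, LGR5 and ABCG2. They were chosen by name, and every probe set that the platform annotation assigns to 1 of these symbols was taken. That gave 33 of the 54613 probe sets on the array, the short sets of probes that together report 1 transcript. Of these, 24 probe sets of 8 genes had a mean over the arrays at or above 4.85 on the log2 scale, the 40th percentile of all probe sets, which is called the level filter below. The other 9 probe sets did not reach it, among them the single probe sets of PROM1 and ABCG2. The members nearest to the filter were an LGR5 probe set with a mean of 4.86, just inside, and a SOX2 probe set with a mean of 4.83, just outside.

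The samples were 2 human neuroendocrine tumour cell lines, QGP1 from the pancreas and NCI-H727 from the bronchus. Electroporation brought either a DAXX-directed siRNA (DAXX-KD) or a universal negative control siRNA (DAXX-NC, called control below) into each line, at a final 50 nM. DAXX deposits the histone variant H3.3 in silent chromatin and at telomeres. The labels name 2 DAXX siRNAs without saying whether they were combined, and all 4 arrays carry a description as ALDH-high QGP1 cells, that is, cells high in aldehyde dehydrogenase activity. Each of the 4 groups was 1 array, so the arrays hold no replicate within a group and nothing in the labels points to repeated cultures.

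Stem-like tumour cells are usually sorted by surface proteins. CD44 is the receptor for the matrix sugar hyaluronan, PROM1 (CD133) is a membrane protein of cell protrusions, CD24 is a small heavily glycosylated anchored protein, and EPCAM is an adhesion protein of epithelial cells. SOX2, KLF4 and MYC belong to the factors that reprogram adult cells to pluripotency, and SOX9 marks pancreatic progenitors and duct cells. LGR5 is a receptor for R-spondins, which strengthen Wnt signalling in intestinal stem cells, and ABCG2 is a drug efflux pump of dye-excluding cells.

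Array medians lay between 5.31 and 5.36 on the log2 scale. The DAXX signal left in the DAXX-KD array was 25.7% of control in QGP1 and 43.3% in NCI-H727 at the leading probe set. At the second DAXX probe set it was 22.7% in QGP1 and 56.2% in NCI-H727, a fall of less than 2-fold in the latter. Of 11 neuroendocrine markers in the table, 11 were at or above the filter level in both QGP1 arrays and 10 in both NCI-H727 arrays, the exception being STMN2. Markers of the tissue of origin did not all follow the line labels. NKX2-1, the transcription factor of lung and thyroid, had values of 8.77 and 8.38 in the arrays labelled QGP1 and 3.35 and 3.23 in those labelled NCI-H727; its second probe set lay between 5.59 and 5.95 on the 4 arrays. GRP, the peptide of pulmonary neuroendocrine cells, had values of 12.80 and 11.76 in QGP1 and 5.37 and 4.12 in NCI-H727. The other lung and bronchial markers past the filter differed little between the lines at their leading probe sets. NCI-H727 minus QGP1 was -0.23 for CALCA, 0.20 for FOXA2, 0.04 for SFTPB and 0.20 for SFTPC. Other CALCA probe sets ran from -2.46 to -0.31. The islet factor PDX1 lay between 5.23 and 5.54 on all arrays. Of the other islet genes SST (difference NCI-H727 minus QGP1 of -1.62), PAX6 (-1.31) and ISL1 (-0.65) were higher in QGP1 and NKX2-2 (3.85) higher in NCI-H727. The source field of the NCI-H727 samples also names QGP1, so the line names below are those of the sample titles, and every direction between lines rests on them. Of markers of other cell types, 5 of 9 fibroblast and endothelial genes were at or above the filter level on each array (mean level 4.87 to 5.10), but not COL3A1, at 3.80 to 3.89. Of 6 leukocyte and blood genes 4 to 5 were (mean level 5.30 to 6.11), but not PTPRC, at 3.0 to 3.68. The highest of them were LYZ, at 6.85 to 8.90, and the haemoglobin gene HBB, at 6.61 to 8.20. The part of these markers of other cell types in the results was not tested. In RNA of a bulk culture, fewer positive cells and less RNA per cell cannot be told apart.

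The promoters of CD44, SOX2 and KLF4 are shown because these members have exactly 1 start in the RefSeq promoter table (GRCh38.p14), in which 6 of the 10 members have an entry. They stand for a gene with a very large difference between the lines, a gene high in both at its leading probe set, and a gene with a moderate difference. Each run is the 250 bases before the start, written 5′ to 3′ in the direction of the gene, with GC boxes (GGGCGG on either strand) in capitals.
CD44 promoter (chr11:35138921-35139170, plus strand): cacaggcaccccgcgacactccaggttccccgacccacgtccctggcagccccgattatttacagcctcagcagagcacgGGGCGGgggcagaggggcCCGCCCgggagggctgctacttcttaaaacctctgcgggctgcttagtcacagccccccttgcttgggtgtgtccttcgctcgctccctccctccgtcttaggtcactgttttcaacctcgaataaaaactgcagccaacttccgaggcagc
SOX2 promoter (chr3:181711675-181711924, plus strand): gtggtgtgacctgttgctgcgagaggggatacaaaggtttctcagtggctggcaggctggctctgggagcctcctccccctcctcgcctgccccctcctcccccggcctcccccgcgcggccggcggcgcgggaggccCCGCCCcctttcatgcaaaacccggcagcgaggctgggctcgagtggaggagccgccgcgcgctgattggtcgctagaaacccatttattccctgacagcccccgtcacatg
KLF4 promoter (chr9:107489770-107490019, minus strand): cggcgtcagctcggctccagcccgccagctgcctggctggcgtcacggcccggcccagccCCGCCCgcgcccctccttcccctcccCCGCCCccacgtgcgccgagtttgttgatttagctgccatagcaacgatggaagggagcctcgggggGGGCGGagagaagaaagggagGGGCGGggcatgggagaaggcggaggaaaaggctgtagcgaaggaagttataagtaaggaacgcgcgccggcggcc

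The CD44 window holds 2 GC boxes, the SOX2 window 1 and the KLF4 window 4, and 42.6% of the 35116 promoter windows of this length hold at least 1. CG dinucleotides numbered 15, 20 and 25 in that order, against a median of 11 over all windows. KLF4 also holds 1 E-box (CACGTG, present in 6.34% of windows), and SOX2 holds 1 CCAAT box (CCAAT on either strand, 32.0% of windows). None of the matches to different motifs overlapped. TATAAA, the AP-1 site TGANTCA and the SOX core AACAAT, searched on both strands, had no match in the 3 windows and stand in 10.7%, 6.57% and 8.98% of all windows.

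The clearest contrast between the lines was a mirror image of CD44 and SOX9. CD44 was high in NCI-H727 and close to or under the filter level in QGP1, whereas SOX9 was high in QGP1 and close to or under that level in NCI-H727. KLF4 was higher in NCI-H727, by a far smaller amount. EPCAM, CD24 and the leading SOX2 probe set were high in all 4 arrays. The differences between lines come from a limma fit over all 32768 probe sets past the filter, with terms for line and for treatment, and are given as NCI-H727 minus QGP1 on the log2 scale with their standard error and Benjamini-Hochberg adjusted p. Its spread rests on 1 residual degree of freedom and a prior of 4.04, and its p-values measure only how unlike the line difference was in the control and DAXX-KD arrays.

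In this fit 13 of the 24 member probe sets passed an adjusted p of 0.05, against 42.8% of all probe sets tested. Of these, 11 were higher in NCI-H727 and 2 in QGP1, against 19.7% and 23.1% of all. The lines differ so widely that a pass alone says little about a member. CD44 supplied 8 of the 13, and by the leading probe set of each gene, the one with the highest mean, 3 of 8 genes passed against 45.4% of all genes. Several CD44 and SOX9 probe sets passed the filter only through the line in which they are high, so they had to differ, and their sizes rather than their number carry the description.

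**Figure D1:**
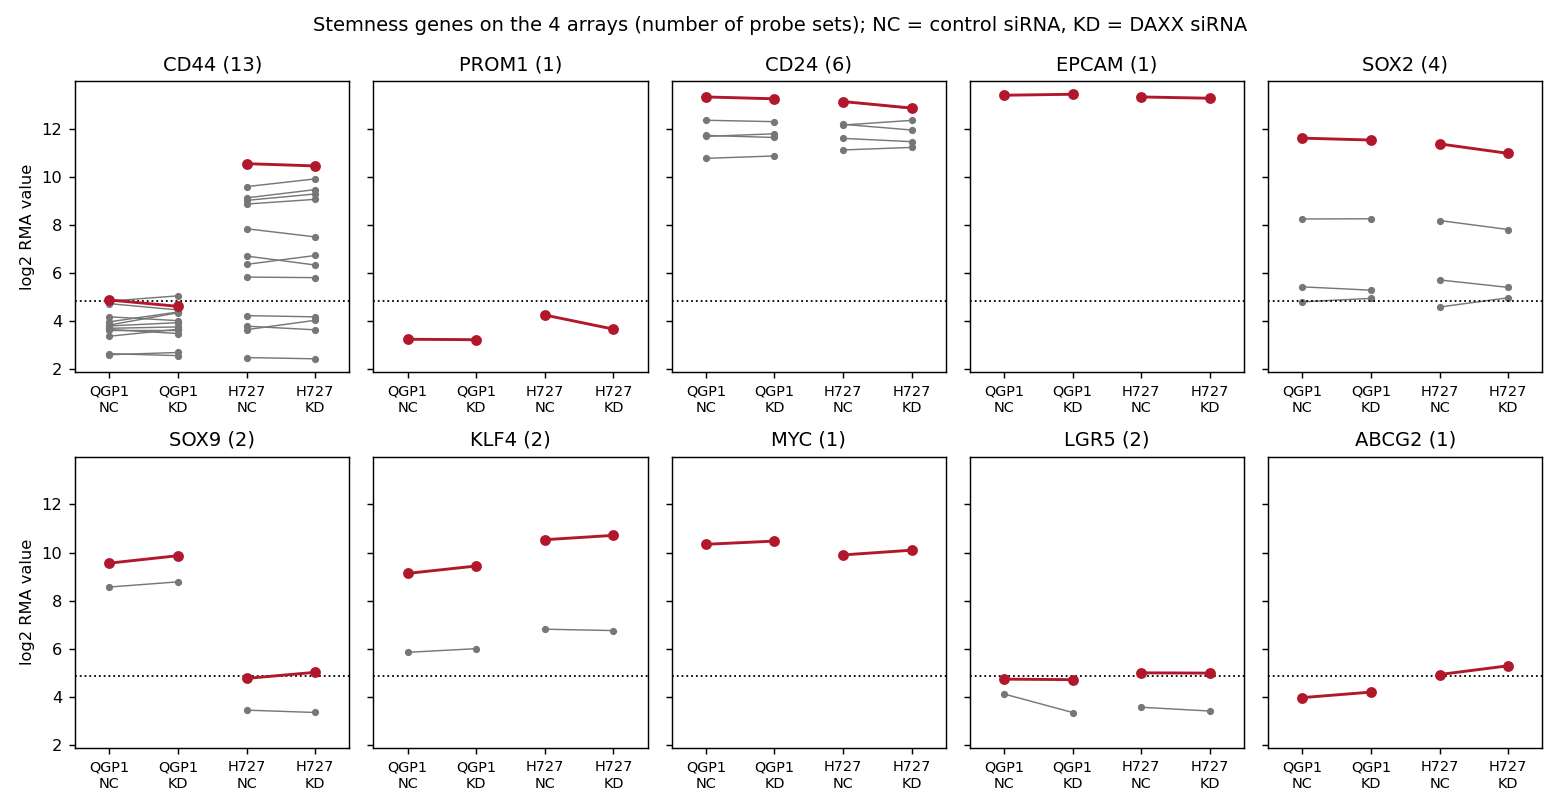
Values of every probe set of the 10 genes (log2 RMA value, vertical axis) on the 4 arrays (horizontal axis, NC control siRNA, KD DAXX siRNA), with the leading probe set of each gene in red, the others in grey and the filter level of 4.85 dotted. CD44 is high in the NCI-H727 arrays and SOX9 in the QGP1 arrays, while EPCAM, CD24 and the leading SOX2 probe set are high in all 4.

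At the leading CD44 probe set, 212063_at, the values were 4.88 in QGP1 control, 4.62 in QGP1 DAXX-KD, 10.55 in NCI-H727 control and 10.45 in NCI-H727 DAXX-KD. Both NCI-H727 arrays lay far above both QGP1 arrays. The difference was 5.75 (SE 0.14), given as a description with no p or fold because the QGP1 values lie at background. It was 5.67 between the control arrays and 5.84 between the DAXX-KD arrays. RMA compresses differences near background.

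CD44 has 13 probe sets, and they were not alike. The 8 past the filter were higher in NCI-H727 by 2.45 to 5.75, and 6 of them had both QGP1 values under the filter level. Probe set 204489_s_at had values of 4.83 and 5.05 in QGP1 and 9.59 and 9.91 in NCI-H727. Probe set 212014_x_at had 3.80 and 3.94 in QGP1 and 8.87 and 9.06 in NCI-H727. The smallest difference among the 8 was at 210916_s_at, with 3.84 and 4.35 in QGP1 and 6.36 and 6.73 in NCI-H727. For each of these 3, as at the leading probe set, the lines did not overlap.

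Of the 5 CD44 probe sets under the filter, 217523_at repeated the contrast with 2.61 and 2.70 in QGP1 and 5.83 and 5.81 in NCI-H727. The other 4 lay between 2.44 and 4.23 on every array and separated the lines little or not at all. Probe set 1565868_at, for instance, had 3.65 and 3.49 in QGP1 and 3.65 and 4.04 in NCI-H727. CD44 is spliced into many forms, and the annotation used here does not say which form each probe set reads.

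SOX9, a transcription factor of progenitor and duct cells in the pancreas and of distal progenitors in the developing lung, showed the opposite order. Its leading probe set 202936_s_at had values of 9.56 in QGP1 control, 9.87 in QGP1 DAXX-KD, 4.77 in NCI-H727 control and 5.02 in NCI-H727 DAXX-KD. Both QGP1 arrays lay above both NCI-H727 arrays (difference -4.82, SE 0.13). The NCI-H727 values lie at the filter level, so no p or fold is given here either. The second probe set, 202935_s_at, had 8.57 and 8.78 in QGP1 and 3.45 and 3.35 in NCI-H727, a difference of -5.27 (SE 0.15). The NCI-H727 values of this second probe set lay under the filter level, so its size is the less certain one.

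KLF4, a zinc finger factor of epithelial differentiation and reprogramming, was higher in NCI-H727 at both of its probe sets. The leading probe set 221841_s_at read 9.13 and 9.44 in QGP1 control and DAXX-KD, and 10.53 and 10.71 in the NCI-H727 arrays. The lines did not overlap, and the difference was 1.34 (SE 0.14, limma adjusted p = 0.00168), or 2.53-fold. At 220266_s_at the difference was 0.86 (SE 0.14, limma adjusted p = 0.0075).

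SOX2, the pluripotency and neural progenitor factor, was high in both lines at its leading probe set. That probe set, 228038_at, read 11.61 and 11.53 in QGP1 and 11.37 and 10.97 in NCI-H727. The NCI-H727 values were the lower ones, but the difference of -0.40 (SE 0.15, 95% interval -0.78 to -0.01) had a limma adjusted p of 0.0918 and did not pass. Probe set 213721_at differed by -0.25 (SE 0.16) and 213722_at by 0.20 (SE 0.14), and neither passed. With an intensity trend in the prior of the fit, the leading probe set passed (limma adjusted p = 0.0177).

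MYC, the growth-promoting transcription factor, was measured by 1 probe set, with 10.34 and 10.48 in QGP1 and 9.90 and 10.10 in NCI-H727. Both QGP1 values were above both NCI-H727 values, and the difference of -0.41 (SE 0.13, 95% interval -0.75 to -0.07, limma adjusted p = 0.0622) missed the threshold. It passed in 3 alternatives: with the filter at the 60th percentile (limma adjusted p = 0.0406), with an intensity trend (0.0173) and with 1 probe set per gene (0.0471). The call for MYC therefore depends on the setting.

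EPCAM showed the most even values, with 13.39 and 13.43 in QGP1 and 13.32 and 13.27 in NCI-H727. Its difference of -0.12 (SE 0.14, limma adjusted p = 0.523) has an interval from -0.47 to 0.23. A difference of 2-fold lies outside that interval, which holds no spread between replicates of a group.

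CD24 was high in all arrays, but its 6 probe sets did not give 1 direction. Probe set 209771_x_at, the leading one, read 13.32 and 13.24 in QGP1 and 13.13 and 12.86 in NCI-H727, a difference of -0.29 (SE 0.14, limma adjusted p = 0.163). Probe set 208650_s_at read 11.68 and 11.79 in QGP1 and 12.15 and 12.35 in NCI-H727, a difference of 0.52 (SE 0.14, limma adjusted p = 0.0322). The first placed the NCI-H727 arrays lower and the second placed them higher. In all, 4 probe sets had lower and 2 had higher means in NCI-H727, and 1 of the 6 passed. CD24 has near-identical pseudogene copies, and probe sets with the suffix x_at can bind other transcripts, so its direction between the lines is uncertain.

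PROM1, LGR5 and ABCG2 lay at or near background. PROM1 read 3.25 and 3.23 in QGP1 and 4.26 and 3.67 in NCI-H727, all under the filter level. The leading LGR5 probe set read 4.74 and 4.72 in QGP1 and 5.0 and 4.99 in NCI-H727, a difference of 0.27 (SE 0.13, limma adjusted p = 0.171), and the second lay between 3.35 and 4.12. ABCG2 read 3.97 and 4.20 in QGP1 and 4.93 and 5.29 in NCI-H727. Only the NCI-H727 values of ABCG2 lay above the filter level, and its mean of 4.60 kept it out of the fit. No fold is given for these 3 genes, because values near background have no dependable ratio.

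**Figure D2:**
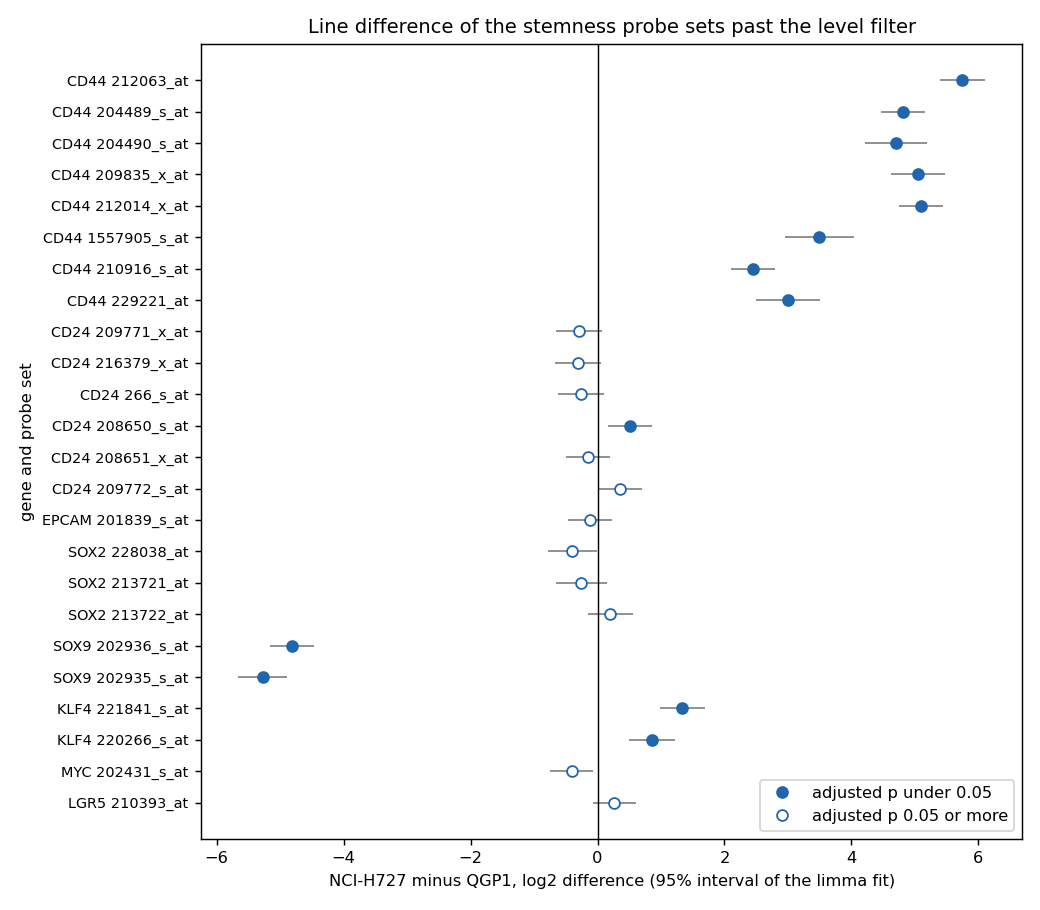
NCI-H727 minus QGP1 difference (log2, horizontal axis) of the 24 probe sets past the filter (vertical axis), with bars for the 95% interval of the limma fit and filled points for an adjusted p under 0.05. The 8 CD44 probe sets lie between 2.45 and 5.75, the 2 SOX9 probe sets at -4.82 and -5.27, KLF4 at 0.86 and 1.34, and the remaining genes within 0.52 of 0.

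DAXX-KD and control arrays of a line differed little at the member probe sets past the filter. In QGP1, 0 of the 24 probe sets past the filter differed by 2-fold or more between DAXX-KD and control, against 0.385% of all probe sets. In NCI-H727 it was also 0 of 24, against 1.73% of all. At 1.5-fold the counts were again 0 in both lines, against 3.16% and 7.75% of all probe sets. With 24 probe sets and backgrounds of this size, counts of 0 do not set these genes apart from the rest. There was 1 array per group in each line, so the differences below have no replicate check.

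The member differences ran from -0.27 to 0.51 in QGP1, with a median of 0.07 beside 0.01 over all probe sets, and 14 of 24 were above 0. In NCI-H727 they ran from -0.39 to 0.37, with a median of -0.06 beside 0.003 over all, and 10 of 24 were above 0. All 24 lay inside the central 95% of all probe sets in each line, which was -0.49 to 0.51 in QGP1 and -0.84 to 0.52 in NCI-H727. As a yardstick from the same arrays, the SD of the differences among probe sets for the same gene was 0.202 (QGP1) and 0.275 (NCI-H727). No more than this separated DAXX-KD from control at 15 of the 24 in QGP1 and 15 of the 24 in NCI-H727. The share of all probe sets within this SD was not computed, so these counts do not set the members apart from the rest.

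In the limma fit over both lines 0 of the 24 passed for the knockdown, and 0% of all probe sets tested did. The adjusted p-values of the members ran from 0.723 to 1.0. At an unadjusted p under 0.05 it was 1 of 24 members, against 6.35% of all probe sets. That member was CD44 probe set 210916_s_at, at 0.51 in QGP1 and 0.37 in NCI-H727 (joint difference 0.44, SE 0.14, limma adjusted p = 0.723, higher in 2 of 2 lines). The leading CD44 probe set differed by -0.27 and -0.09, so the CD44 probe sets did not give 1 direction. Over its 8 probe sets past the filter, CD44 ran from -0.27 to 0.51 in QGP1 and from -0.37 to 0.37 in NCI-H727.

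The 3 SOX2 probe sets that reached the filter had lower values in DAXX-KD NCI-H727, with differences of -0.39, -0.37 and -0.31. In QGP1 the same probe sets differed by -0.08, 0.01 and -0.14. The fourth SOX2 probe set, under the filter, differed by 0.38 in NCI-H727. Over both lines the leading probe set differed by -0.24 (SE 0.15, limma adjusted p = 0.889) and did not pass. Whether the lines differ in this response was not tested, since each line holds 1 pair of arrays.

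SOX9 and KLF4 were slightly higher in DAXX-KD at their leading probe sets in both lines. The SOX9 difference was 0.31 for QGP1 and 0.25 for NCI-H727, the latter between values on either side of the filter level (joint 0.28, SE 0.13, limma adjusted p = 0.831). Its second probe set differed by 0.21 and -0.10. KLF4 differed by 0.31 and 0.18 (joint 0.24, SE 0.14, limma adjusted p = 0.872), and by 0.15 and -0.06 at its second. MYC differed by 0.13 and 0.20 (joint 0.17, SE 0.13, limma adjusted p = 0.928). None of the 3 genes passed.

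Among the surface markers, EPCAM moved by 0.04 (QGP1) and -0.05 (NCI-H727), the smallest pair of values at a leading probe set past the filter apart from LGR5, at -0.02 and -0.01. The 95% interval of the joint EPCAM difference, -0.35 to 0.34, does not reach 2-fold, but with 1 array per group it holds no spread between replicates. CD24 ran from -0.11 to 0.11 in QGP1 and from -0.29 to 0.19 in NCI-H727. Its 4 probe sets that were lower in QGP1 were lower in NCI-H727, and the 2 that were higher were higher in both, so that the sign went with the probe set rather than the line. The largest differences of all 33 probe sets were between values under the filter level: the second LGR5 probe set went from 4.12 to 3.35 in QGP1, and PROM1 from 4.26 to 3.67 in NCI-H727. ABCG2 went from 3.97 to 4.20 and from 4.93 to 5.29.

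**Figure D3:**
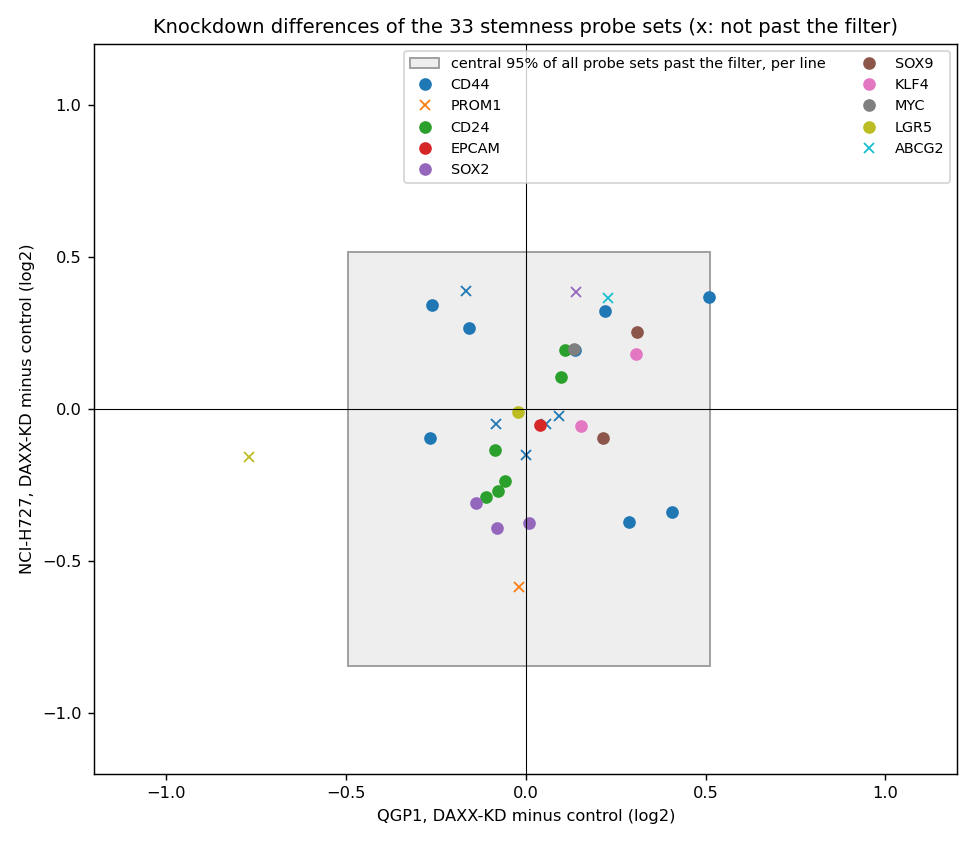
DAXX-KD minus control (log2) in QGP1 (horizontal axis) and NCI-H727 (vertical axis) for the 33 probe sets, coloured by gene, with crosses for those not past the filter and a shaded box for the central 95% of all probe sets per line. All 24 points past the filter lie in the box, and the 1 cross outside it is the second LGR5 probe set at -0.77 in QGP1.

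Genes that work with these 10 were taken from 10 lists by function, 142 genes in all, of which 130 were in the table under a single symbol and 114 passed the filter at their leading probe set. Between the lines 66 of the 114 passed the limma fit, 28 higher in NCI-H727 and 38 higher in QGP1, against 21.7% and 23.7% of all genes. These shares of all genes are also the background for the counts per list below. The lists are small, so a count alone says little about a list. Their median difference was 0.05, the same as over all genes. The named values below are NCI-H727 minus QGP1 at the leading probe set, with the limma adjusted p for some. Of the 66 genes, 8 had both values of a line under the filter level (SOX5, KLF9, ASCL2, HAS2, ABCB1, NT5E, DCLK1 and CD200). They reached the filter through the line in which they are high and so had to differ, and their differences are given without a p.

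Partners of CD44 differed in both directions, 4 of 12 higher in NCI-H727 and 2 higher in QGP1. HAS2 and HAS3, which make the CD44 ligand hyaluronan, were higher in NCI-H727 by 2.72 (SE 0.21) and 1.75 (SE 0.38, limma adjusted p = 0.0181). The second probe set of HAS2 differed by 3.87 and that of HAS3 by 0.20. SPP1, the secreted ligand osteopontin, was lower in NCI-H727, with a difference of -4.41 (SE 0.17, limma adjusted p = 9.87e-05), and by -0.85 at its second probe set. Of the proteins that tie the CD44 tail to actin, EZR (1.28) and RDX (1.17) were higher and MSN (-2.72) lower in NCI-H727, though the second MSN probe set differed by 0.20. Other probe sets ran from 0.49 to 1.58 for EZR and from 0.10 to 1.42 for RDX. ESRP1, the epithelial regulator of CD44 splicing, differed by -0.07 at its leading probe set and did not pass there, but its second probe set differed by 0.81.

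Of the SOX and KLF relatives, 3 of 13 were higher in NCI-H727 and 6 higher in QGP1. SOX5, a partner of SOX9 in cartilage, followed the order of SOX9 with 9.72 and 10.07 in QGP1 against 3.40 and 3.56 in NCI-H727, a difference of -6.42 (SE 0.14). At the 3 others the gap ran from -3.57 to -0.05. SOX6, of the same subfamily, went the other way at 2.55 (SE 0.32, limma adjusted p = 0.00297), with other probe sets from -0.65 to 2.86. SOX12 differed by -2.39 and KLF9 by -3.13, while KLF2 (1.83) and KLF5 (1.10) shared the direction of KLF4. For KLF9 the 4 other probe sets ran from -4.31 to 0.32, and the second SOX12 probe set differed by -0.46.

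The MYC network had 2 of 11 genes higher in NCI-H727 and 5 higher in QGP1. FBXW7, the ubiquitin ligase subunit that marks MYC for breakdown, differed by -2.14 (SE 0.14, limma adjusted p = 0.00039), with other probe sets from -2.17 to 0.85. Of the MAX partners that oppose MYC, MXI1 differed by -1.86 and MXD1 by 1.56, and the relative MYCL by -1.26. The 2 other MXD1 probe sets differed by -1.13 and 0.51, so its direction depends on the probe set. At the second MYCL probe set the difference was -0.47. Among 13 MYC target genes 1 was higher in NCI-H727, the spermidine synthase SRM (1.69), and 3 were higher in QGP1, NOP16 (-1.69), NOLC1 (-1.39) and ODC1 (-0.48). The 3 other NOP16 probe sets ran from -1.54 to 0.11 and the 2 other NOLC1 probe sets from -0.42 to 0.06. The list median was -0.08.

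In the LGR5 circuit, the relative LGR4 was higher in NCI-H727 by 2.06 (SE 0.15, limma adjusted p = 0.000592), at 8.64 and 9.01 in QGP1 against 10.85 and 10.91. Its 2 other probe sets differed by 0.08 and 0.27. The Wnt-driven stem cell factor ASCL2 was also higher (1.28), with QGP1 values under the filter level and a second probe set at -0.13. TNFRSF19 (-1.97), LRIG1 (-1.74), a brake on EGF receptor signalling, and RNF43 (-0.47), which removes Wnt receptors, were higher in QGP1. For LRIG1 the 3 others ran from 0.18 to 0.36, so its direction depends on the probe set. The 2 other TNFRSF19 probe sets differed by -1.68 and -0.06. In all 2 of 12 were higher in NCI-H727 and 3 higher in QGP1.

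The EPCAM and PROM1 partners and the drug pumps held some of the widest gaps. CD9, a tetraspanin, differed by -5.49 (SE 0.21, limma adjusted p = 9.90e-05) at its leading probe set but by -0.01 and 0.03 at its 2 others. FHL2, which binds the EPCAM tail, was higher in NCI-H727 by 3.61 (SE 0.17, limma adjusted p = 0.000158). CLDN7, the claudin that joins EPCAM, differed by -0.70. Of the 9 partners 3 were higher in NCI-H727 and 4 higher in QGP1. ABCB1, the P-glycoprotein pump, read 3.28 and 3.60 in QGP1 and 9.78 and 9.81 in NCI-H727, a difference of 6.36 (SE 0.15), and its second probe set differed by 3.24. ABCG1, the cholesterol-exporting relative of ABCG2, differed by 2.82 (SE 0.15, limma adjusted p = 0.000234), with its 3 other probe sets from -0.62 to 2.31. Of the 11 pumps 4 were higher in NCI-H727 and 3 higher in QGP1.

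Other surface markers of stem cells split between the lines, 6 of 15 higher in NCI-H727 and 5 higher in QGP1, against 21.7% and 23.7% of all genes. NT5E (CD73), which makes adenosine, was higher in NCI-H727 by 5.25 (SE 0.14), and FUT4, which makes the CD15 sugar, by 2.07. For NT5E the 3 other probe sets ran from 3.28 to 8.28. CD200, an inhibitory ligand, read 10.11 and 10.09 in QGP1 and 3.31 and 3.09 in NCI-H727, a difference of -6.90 (SE 0.14). DCLK1, a tuft cell kinase, differed by -3.81 and the receptor KIT by -3.51. At the 3 other DCLK1 probe sets the difference ran from -2.30 to -0.08. Of the regulators, the filament protein NES (-3.25), the RNA-binding protein MSI2 (-2.78) and STAT3 (-1.69) were higher in QGP1. For MSI2 the 9 other probe sets ran from -3.44 to -0.12. HMGA2 (0.71), PTCH1 (0.58) and ID1 (0.51) were higher in NCI-H727, although the 8 others of HMGA2 ran from -1.13 to 1.70. The 4 other PTCH1 probe sets ran from -0.12 to 0.37 and the 3 other STAT3 probe sets from -1.43 to 0.09. In all 3 of 15 regulators were higher in NCI-H727 and 6 higher in QGP1. Of the pluripotency factors 3 of 7 in the table passed the filter, and LIN28B (-1.02, SE 0.14, limma adjusted p = 0.00375) was higher in QGP1. NANOG lay between 4.28 and 4.65 and LIN28A between 2.59 and 2.84, under the filter level on all arrays.

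**Figure D4:**
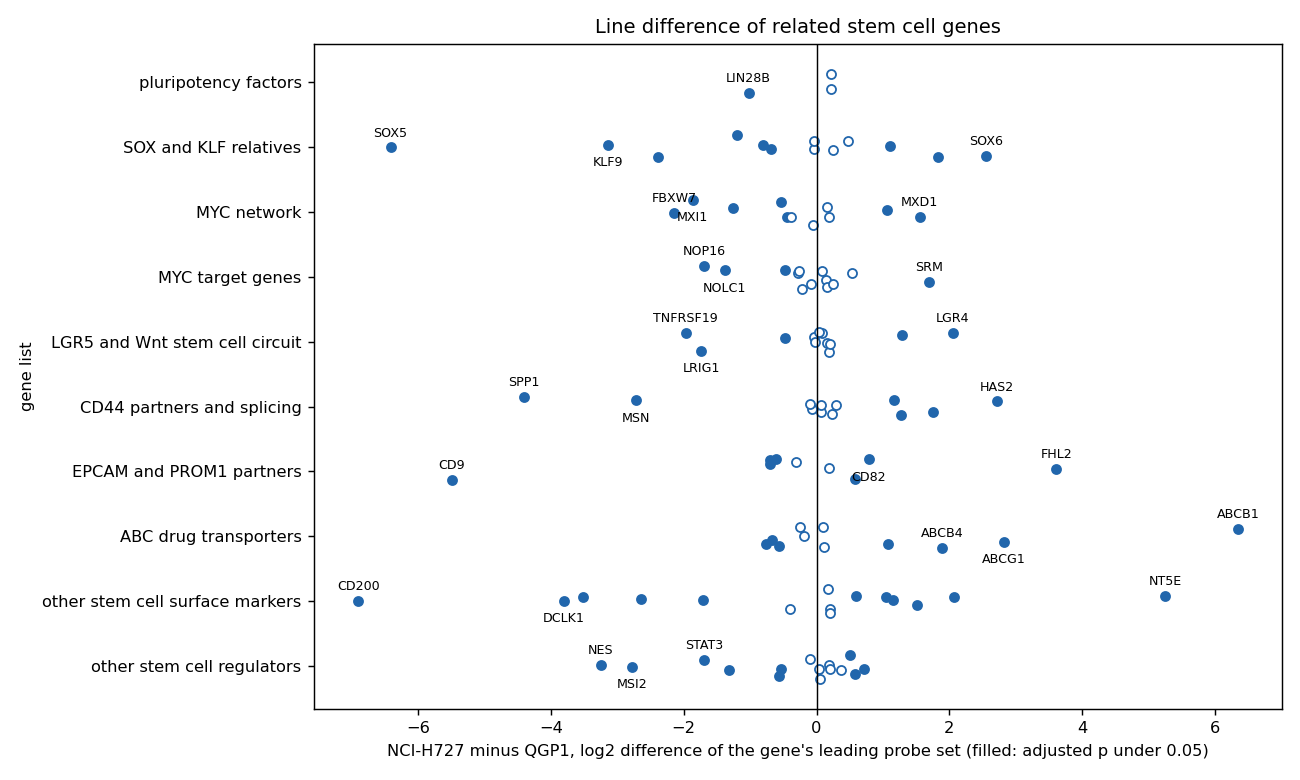
NCI-H727 minus QGP1 difference (log2, horizontal axis) of the leading probe set of each related gene past the filter, by list (vertical axis, points spread within a row for visibility), filled where the adjusted p was under 0.05 and with the widest called genes named. CD200 at -6.90 and ABCB1 at 6.36 mark the ends, and most lists hold genes on both sides of 0.

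Under DAXX knockdown 5 of the 114 related genes differed by 2-fold or more in a line, each in 1 line only at that size. In QGP1 KLF9 was higher, from 6.83 to 8.07 (2.37-fold), against 0.259% of all genes at that size and direction. The 4 others of KLF9 ran from -0.29 to 0.62. In NCI-H727 HAS2 was higher, from 6.26 to 7.44 (2.28-fold), against 0.177% of all genes, and its second probe set was higher by 2.24. HAS2 stood at 3.89 and 4.36 in QGP1, under the filter level. Of these 5 genes, HAS2 was the only one with every other probe set past 2-fold in the same line and direction.

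The other 3 were lower in DAXX-KD NCI-H727, against 1.32% of all genes. SOX6 went from 8.54 to 7.17 (2.59-fold), and the 7 others ran from -1.60 to 0.18. CAD, which starts pyrimidine synthesis, went from 8.29 to 6.91 (2.6-fold), and its second probe set differed by -0.19. In QGP1 the leading CAD probe set was also lower in DAXX-KD, from 7.76 to 7.12, which is short of 2-fold. SMOC2, a matrix protein of intestinal stem cells, went from 6.86 to 5.49 (2.59-fold), and its second probe set differed by -0.28. In the limma fit over both lines 0 of the 114 genes passed for the knockdown. At an unadjusted p under 0.05 it was 10 of the 114, against 6.35% of all probe sets. That share is over probe sets and not over genes at their leading probe set, so this count says little about these genes. With a mean over the probe sets of a gene 1 of the related genes was past 2-fold.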

How the data were processed

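Total RNA of 4 samples was amplified with a 3' IVT kit, labelled with biotin and read on 1 array each. The deposited table holds log2 values. Per the submitters' processing notes the authors ran RMA in affy 1.40.0 under R 3.0.3. RMA removes background, brings all arrays to 1 distribution by quantile normalization and gives each probe set a single value. A change shared by most genes would be removed by that step. The series gives no counts, so no depth applies, and the number of arrays limits the precision.

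Names came from the platform annotation: 41091 had 1 symbol, 1801 several and 11721 none, and only the first were named. Of these, 41037 had an Entrez identifier in the RefSeq table of GRCh38.p14, and 0 symbols changed. Probe sets with a mean under the 40th percentile were left out of fits and counts. Differences were fitted with limma 3.58.1 (R 4.3.3) on all 32768 remaining probe sets, with line and treatment as terms, two-sided, Benjamini-Hochberg adjusted at 0.05; the code was tested on simulated data. Within a line only sizes are given. Every member was named; of the related lists, genes past 2-fold in a line and up to 3 called genes per direction with the largest line difference could be named. RDX, ESRP1, LEF1, NANOG and LIN28A were named after their values were seen. So were PDX1, PTPRC, LYZ, HBB, COL3A1, CALCA, FOXA2, SFTPB and SFTPC from the marker lists. The members and lists were chosen with earlier results of these data known.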

Additional observations from a re-analysis of the deposited data

How the results depend on the processing

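No member probe set past the filter reached 2-fold in either line, or passed the limma fit for the knockdown (1 of 24 at an unadjusted p under 0.05), under any alternative run. For the line difference the number of member probe sets called was 13 of 24, and 19 of 24 with an intensity trend in the prior. It was 2 of 6 without x_at and s_at probe sets, and 4 of 8 genes with 1 probe set per gene, both with fewer probe sets tested. Of the related genes 66 were called; counting 2-fold or more with no test gave 41 between the control arrays and 44 between the DAXX-KD arrays alone. The 5 related genes past 2-fold under knockdown became 3 with the filter at the 60th percentile, 15 at 1.5-fold and 1 with the probe sets of a gene averaged. All other counts stayed within 1.5 times. For single members, 93 values were on the same side of the threshold or moved by less than the spread between probe sets, 5 line differences now passed and 0 reversed: CD24 with an intensity trend (limma adjusted p = 0.011), SOX2 with it, and MYC in the 3 settings given above. Scaling the arrays again moved the median difference by at most 0.06. The labels give no replicate numbers; the knockdown fit pairs the arrays of each cell line, and without that block it called 0 members too. Dim values limit PROM1, LGR5, ABCG2 and the low line of CD44 and SOX9.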

Other observations

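MXI1 and MXD1, which compete with MYC for MAX, were both a little higher in DAXX-KD in both lines. MXI1 went from 10.17 to 10.51 in QGP1 and from 8.25 to 8.70 in NCI-H727, and MXD1 from 7.40 to 7.90 and from 8.90 to 9.51. Neither passed the limma fit over all probe sets, and the 2 other MXD1 probe sets differed by -0.14 and -0.13 in QGP1 and by -0.52 and 0.21 in NCI-H727. KIT went from 7.93 to 8.62 in QGP1 and from 4.43 to 5.10 in NCI-H727, starting from under the filter level in the latter. MSI2 went from 10.85 to 10.22 and from 8.04 to 7.48, with other probe sets from -0.55 to 0.05 and from -1.0 to 0.43. The Wnt effector LEF1 went from 8.25 to 7.72 and from 8.43 to 7.95, while the 2 others of LEF1 ran from 0.01 to 0.08 in QGP1 and from -0.42 to 0.10 in NCI-H727. These genes were picked after their values were seen, and none passed.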
